A study of Mus musculus with 48 samples.

Results

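The 8 libraries with the most Slc17a7 were compared with the 24 libraries that had the least, out of 48 libraries of dissected nucleus accumbens shell. The libraries were chosen by a measured value: all 48 were ranked by the deposited value of Slc17a7 (ENSMUSG00000070570), and the 16 libraries of intermediate rank entered neither side. Slc17a7 is therefore no finding here and was left out of every test and count. A p value given for another gene measures its association with Slc17a7 across these libraries, and the sides are not groups of the study.

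The mice were of HS-CC stock (heterogeneous stock-collaborative cross), bred for ethanol preference, High in 1 line and Low in the other, to selection generation 4. No treatment or engineered allele is given in the labels, and age is not given. Each of the 4 groups, High and Low of gender F and M, held 12 mice with 1 library each. The shell was cut out by laser microdissection, and poly(A) RNA was sequenced. The 8 highest libraries came from 3 High and 5 Low mice (3 of gender F, 5 of gender M). The 24 lowest came from 14 High and 10 Low mice (11 of gender F, 13 of gender M), and the 16 between from 7 High and 9 Low mice (10 of gender F, 6 of gender M). Line and gender were covariates in every fit unless stated. Whether mice shared a litter is not given in the sources used here, so p values measure only the spread between these libraries.

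Slc17a7 encodes VGLUT1, the transporter that loads glutamate into synaptic vesicles. Its messenger RNA lies in the cell bodies of excitatory neurons of the cortex, hippocampus and related pallial structures, while the projection neurons of the accumbens, the medium spiny neurons, release GABA. Pallial excitatory neurons are also marked by a set of transcription factors, among them Tbr1, Neurod2, Neurod6 and Emx1. Medium spiny neurons are marked by Ppp1r1b (DARPP-32) and the dopamine receptors Drd1 and Drd2.

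Slc17a7 measured 3886 normalised counts in Low male 6, 1626 in High male 1, 1387 in High male 10, 961 in Low male 8, 862 in Low female 4, 448 in Low male 5, 244 in Low female 9 and 217 in High female 6. Below, values of the 8 libraries are always given in this order, and the numbers after a group are only names. The 2 libraries just outside the 8 had 152 (Low male 10) and 101 (Low female 2). The 16 libraries between ran from 16 to 152 with a median of 26. The 24 lowest ran from 2 to 15 with a median of 7, so the lower boundary lay between adjacent values, 15 and 16.

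The deposited values are normalised and rounded, so their totals (13579559 to 14561911 per library) are no sequencing depth, and the depth is unknown. The pooled share of the value that lies in the last exon of genes with 4 or more exons, a measure of how strongly reads gather at the 3' end, ran from 44.9% to 55.6% (median 51.9%) in the 8 highest and from 51.5% to 58.4% (median 54.2%) in the 24 lowest. The lowest of all 48 was High male 1, at 44.9%, and the highest of the 8 was High male 10, at 55.6%. High male 1 also had the lowest median correlation with the other libraries (0.967). Medium spiny neuron markers were abundant on both sides: Ppp1r1b ran from 19811 to 33234 in the 24 lowest and from 22406 to 30197 in the 8 highest.

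Transcripts of pallial excitatory neurons were higher in the 8 libraries, and no striatal transcript passed the test in the downward direction. Among 15349 genes that reached 1 ppm of the mean library total (14.06 normalised counts) in at least 12 libraries, limma called 56 higher (0.365%) and 18 lower (0.117%) at an adjusted p under 0.05. Cck, the neuropeptide cholecystokinin, had the largest difference, with a log2 difference of 2.97 ± 0.26 (SE). At an unadjusted p under 0.05 there were 2719 genes, 17.7% of those tested in either direction, and counts of list members at that level are to be read against this share. Of 64 tested members of 6 glutamatergic gene lists, 6 were higher and 1 lower, 24 had an unadjusted p under 0.05, and their median log2 difference was 0.12 against 0.01 over all tested genes. Of 60 tested members of 6 striatal lists, 1 was higher and none lower, with 9 at an unadjusted p under 0.05 and a median of 0.00.

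The counts rest on few libraries. Without High male 1, the library with the lowest last-exon share, 11 genes were higher and none lower (limma, 1406 of either direction at an unadjusted p under 0.05). Without Low male 6, the library with the most Slc17a7, 14 were higher and none lower (2023 at an unadjusted p under 0.05), and without High male 10 there were 242 and 261. With the last-exon share as a further covariate, 6 were higher and none lower, with 839 at an unadjusted p under 0.05. With every library rescaled to the same total, the split was 74 higher and 12 lower.

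**Figure D1:**
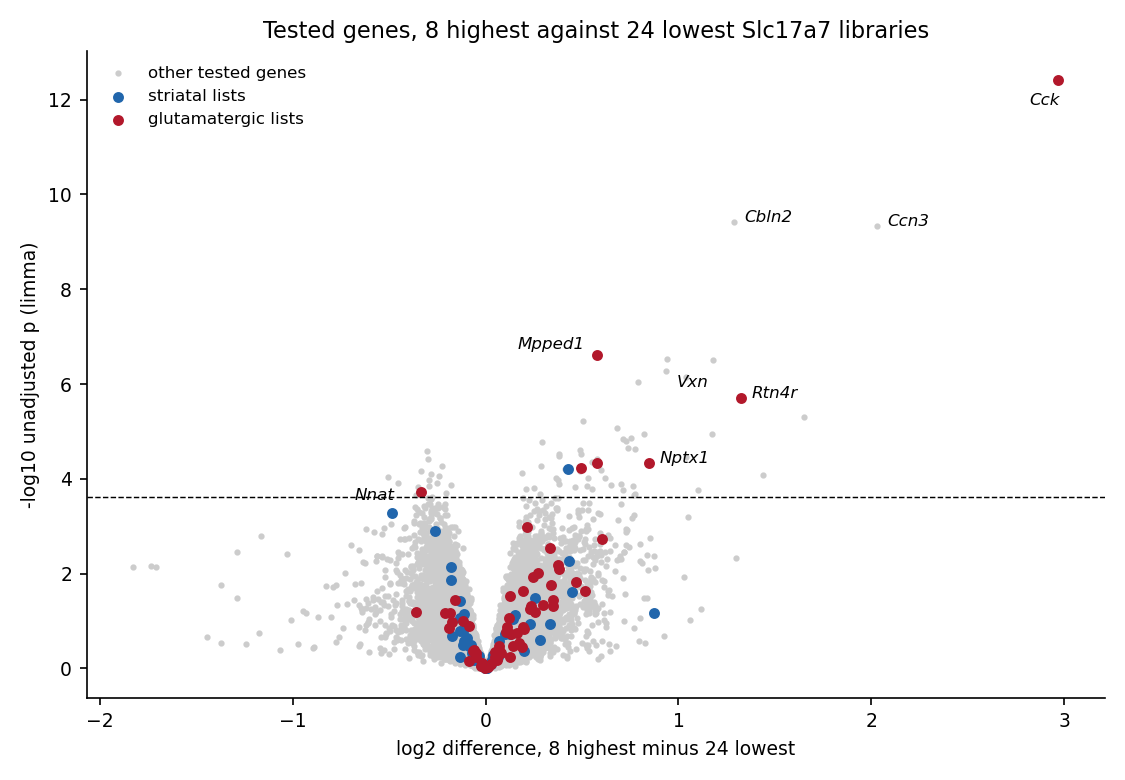
Log2 difference of each of the 15349 tested genes between the 8 highest and 24 lowest Slc17a7 libraries (horizontal axis) against the negative log10 of its unadjusted limma p (vertical axis); the dashed line marks the largest p that passed the adjusted threshold of 0.05. Red points are members of the glutamatergic lists, of which Cck lies far to the right at 2.97, and blue points are members of the striatal lists, of which the 1 above the line (Cnr1) lies at 0.43.

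Many excitatory neuron genes are nearly silent in the shell, and only 5 of the 13 transcription factors of the list reached the limit on low values. They were therefore also read from a fit with no such limit, over 28769 genes, in which 74 genes were higher (0.257%) and 12 lower (0.0417%). A gene that enters that fit through the 8 libraries alone had to differ, so the counts within lists below describe the libraries and are no added support. Differences are on the scale of log2(value + 7.03 normalised counts), the pseudocount being 0.5 ppm, and understate the change of such low genes.

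In all, 6 transcription factors of pallial excitatory neurons were higher in that fit, led by Tbr1 and Neurod6. Tbr1 (ENSMUSG00000035033; chromosome 2, plus strand, first listed exon at 61640987 on mm9), a T-box factor of early-born and deep-layer cortical projection neurons, measured 377, 126, 120, 92, 58, 34, 39 and 35. In the 24 lowest it ran from 1 to 18 with a median of 5. All 8 libraries lay above all 24, with a log2 difference of 2.76 ± 0.26 (limma, adjusted p = 1.6e-07). With no limit on low values, 6 of 28769 genes (0.0209%) had all 8 libraries above all 24, and none had all 8 below (0%). The 6 were Tbr1, Neurod2, Nrn1, Cck, Cbln2 and the long noncoding Gm11549. Only Cck and Cbln2 of these reached the limit on low values, so the separation of the others is no added support.

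Neurod6 (ENSMUSG00000037984; chromosome 6, minus strand, 55627812 on mm9), a basic helix-loop-helix factor of postmitotic excitatory neurons, measured 241, 113, 96, 79, 32, 10, 16 and 3. It was listed at 0 in 17 of the 24 lowest and reached at most 4 there. Its values fell through the 8 libraries nearly in the order of Slc17a7, and only the lowest of them, High female 6 at 3, overlapped the 24. The log2 difference was 2.73 ± 0.31 (adjusted p = 7.17e-06).

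Neurod2, a close relative of Neurod6 that acts in the same neurons, measured 128, 38, 61, 46, 37, 8, 10 and 6, against 0 to 4 (median 1) in the 24. The 2 ranges did not touch, and the log2 difference was 2.09 ± 0.24 (adjusted p = 8.04e-06).

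Emx1, a homeobox factor of the dorsal telencephalon, ran from 3 to 23 (median 9) in the 8 and from 0 to 7 (median 1) in the 24, a log2 difference of 1.00 ± 0.14 (adjusted p = 0.000316). Neurod1 ran from 0 to 11 against 0 to 1 and was listed at 0 in 2 of the 8, with a log2 difference of 0.45 ± 0.09 (adjusted p = 0.0198). Both stayed at a handful of normalised counts even in the library with the most Slc17a7.

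The other 7 factors of the list did not pass. Zbtb18 had a log2 difference of 0.33 ± 0.10 (adjusted p = 0.111), with 479 to 1135 in the 8 and 388 to 645 in the 24. Fezf2, a factor of subcortically projecting neurons of layer 5, had 0.47 ± 0.18 (adjusted p = 0.18), with 22 to 130 against 14 to 52. Bhlhe22 had 0.75 ± 0.21 (adjusted p = 0.124 with no limit on low values), and its values of 74 in Low male 6 and 47 in High male 1 lay above the 25 that was the most among the 24. Lhx2 had -0.06 ± 0.08, Emx2 -0.17 ± 0.10 and Pou3f1 0.23 ± 0.12, and Eomes, of intermediate progenitors, was listed at 0 in 7 of the 8 libraries.

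**Figure D2:**
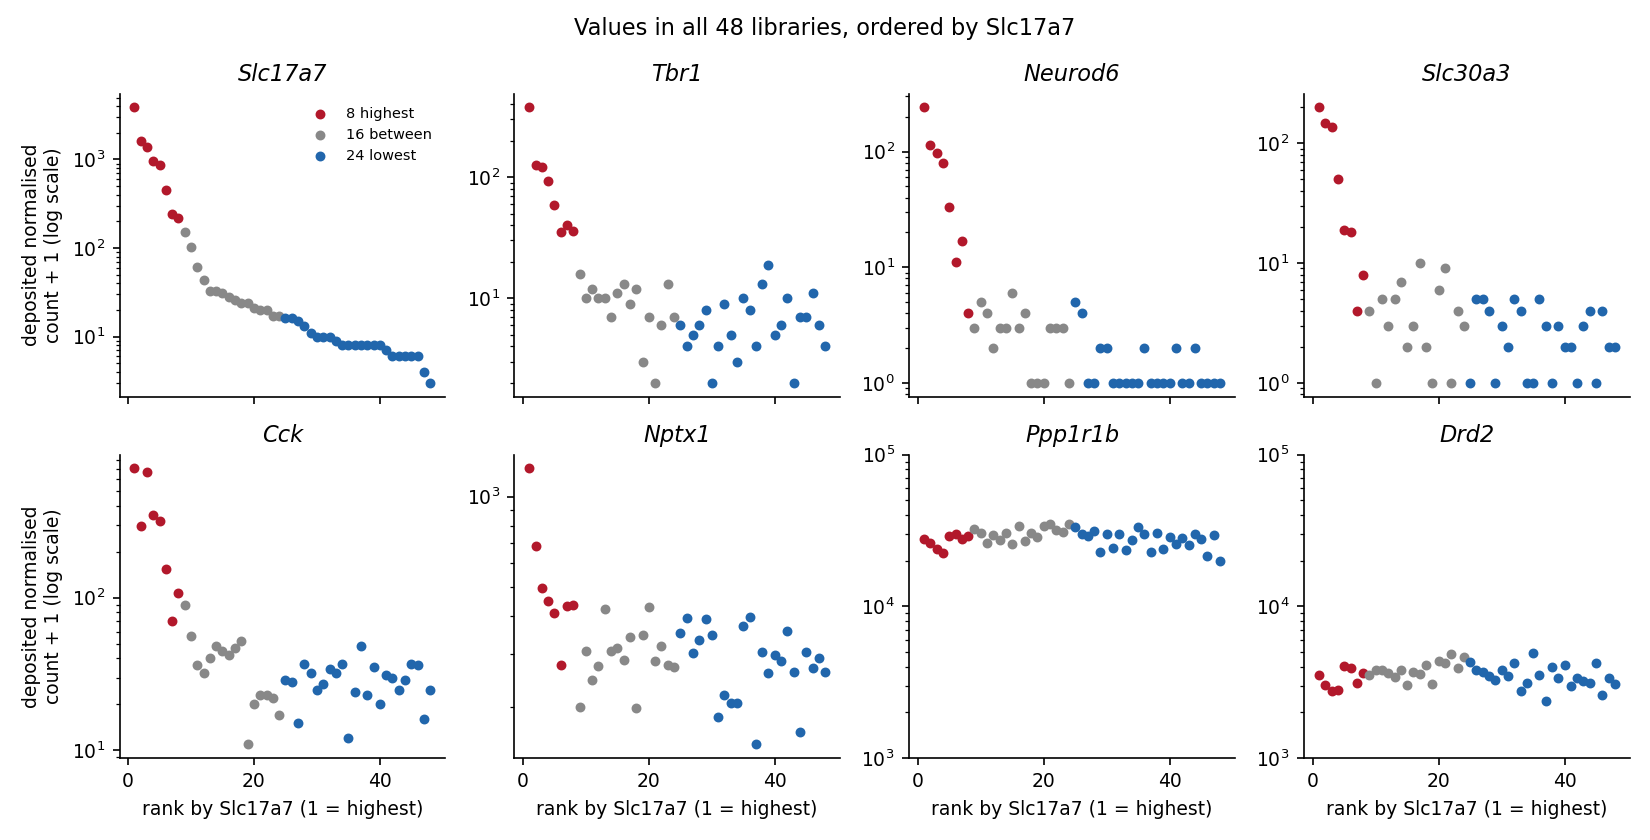
Values of 8 genes in all 48 libraries, ordered from the most to the least Slc17a7 on the horizontal axis; the vertical axis is the deposited normalised count plus 1 on a log scale that differs between panels. Red, grey and blue points are the 8 highest, 16 between and 24 lowest libraries. Tbr1, Neurod6, Slc30a3 and Cck fall with Slc17a7 through the red points, while Ppp1r1b and Drd2 of medium spiny neurons show no such fall.

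The promoters of genes that were higher together were searched for 2 motifs of these factor families. The motifs were CAGATG, the form of the E-box favoured by NEUROD factors, and GGTGTG, the core of the T-box site (CATCTG and CACACC on the opposite strand). Of 17 genes of the glutamatergic lists that were higher in either fit, 12 had an entry in the RefSeq promoter table (GRCm38.p6). In the 250 bases before a listed start, 4 of the 12 held CAGATG (Cck, Dkkl1, Etv1 and Neurod2), against 16.3% of all 27025 genes in the table. The T-box core was in 4 of the 12 (Dkkl1, Emx1, Neurod6 and Slc30a3), against 18.3% of all genes. Etv1 and Slc30a3 had more than a single listed start, and the match did not lie before each of them. In Dkkl1, which held both, the matches lay 109 and 129 bases before the start and did not overlap. A match is a description of letters and not a bound site. The 150 bases before the start are shown for Cck, the gene with the largest difference, and for Neurod2 and Neurod6, with the motif in capitals. On GRCm38.p6 they are chr9:121495695-121495844, chr11:98329646-98329795 and chr6:55681264-55681413, all on the minus strand.
Cck: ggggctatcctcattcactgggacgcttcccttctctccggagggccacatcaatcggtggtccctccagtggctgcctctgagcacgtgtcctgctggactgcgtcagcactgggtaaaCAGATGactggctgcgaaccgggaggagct
Neurod2: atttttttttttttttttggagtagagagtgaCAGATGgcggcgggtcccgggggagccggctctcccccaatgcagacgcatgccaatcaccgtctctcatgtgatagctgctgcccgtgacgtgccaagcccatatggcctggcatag
Neurod6: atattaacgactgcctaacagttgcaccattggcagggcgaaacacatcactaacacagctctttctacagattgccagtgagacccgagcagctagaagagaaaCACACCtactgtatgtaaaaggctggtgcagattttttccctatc
The E-box began 30 bases before the start in Cck and 118 in Neurod2, and the T-box core 45 bases before the start in Neurod6. Of the 12 genes, Tbr1, Mpped1, Neurod1, Rtn4r and Rtn4rl2 held neither motif in their 250 bases, and neither did Slc17a7. Whether 4 of 12 exceeds the share over all genes was not tested, and the promoters shown were picked among those with a match.

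Effector transcripts of forebrain excitatory neurons were higher too. Of 15 tested members of that list 4 were higher and none lower, and all 15 differences were above 0 (median 0.19). Cck (ENSMUSG00000032532; chromosome 9, minus strand, 121398943 on mm9) measured 700, 295, 662, 348, 316, 153, 69 and 107, against 11 to 47 (median 28) in the 24. It was 1 of 2 genes among the 15349 (0.013%) with all 8 libraries above all 24, the other being Cbln2; none had all 8 below (0%). Its adjusted p was 5.97e-09, and with the last-exon share as a covariate the log2 difference was 3.06 (adjusted p = 2.52e-07). Leaving out each of the 8 libraries in turn gave 2.76 to 3.21.

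Mpped1, a metallophosphoesterase-domain gene, measured 1053, 850, 813, 922, 623, 758, 722 and 511, against 372 to 663 (median 503.5). All 8 lay above that median and 6 above all 24, with a log2 difference of 0.58 ± 0.09 (adjusted p = 0.000801). Rtn4r, the Nogo receptor, measured 201, 79, 136, 77, 38, 47, 20 and 19, against 10 to 32 (median 18), with a log2 difference of 1.32 ± 0.23 (adjusted p = 0.0031). Nptx1, a pentraxin secreted at excitatory synapses, measured 1240, 682, 494, 449, 408, 273, 430 and 435, against 149 to 397 (median 293), and 7 of the 8 lay above all 24. Its log2 difference was 0.85 ± 0.18 (adjusted p = 0.0226), and it was called in 6 of the 8 fits that left out 1 library.

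With no limit on low values, 4 more members were higher. Slc30a3, the transporter ZnT3 that fills the synaptic vesicles of cortical neurons with zinc, measured 198, 145, 134, 49, 18, 17, 3 and 7, against 0 to 4 in the 24 (log2 difference 2.41 ± 0.33, adjusted p = 0.000155). Nrn1, the activity-regulated neuritin, measured 315, 157, 195, 88, 38, 16, 22 and 16, against 1 to 10 (2.61 ± 0.32, adjusted p = 2.2e-05), and no library of the 8 overlapped the 24. Dkkl1 ran from 1 to 61 against 0 to 6 (1.60 ± 0.22, adjusted p = 0.000155), and Rtn4rl2, a relative of the Nogo receptor, from 0 to 67 against 0 to 3 (1.43 ± 0.20, adjusted p = 0.000175).

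Other members of the list did not pass. Camk2a, the kinase of postsynaptic densities, ran from 10875 to 18356 in the 8 and from 9979 to 14770 in the 24, with a log2 difference of 0.11 ± 0.07. Nrgn, the calmodulin-binding neurogranin, had 0.38 ± 0.13 (adjusted p = 0.145), with all 8 above the median of the 24. Slc6a7, the brain proline transporter, had 0.38 ± 0.13 (adjusted p = 0.138).

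Transcripts of cortical layers gave fewer calls. In the deep-layer list 2 of 15 tested members were higher, Etv1 and Deptor, and none lower. Differences ran from -0.36 to 0.58 (median 0.13), with 11 above 0 and 4 below. At an unadjusted p under 0.05, 5 were higher and 1 lower. The summed value of the list did not rise. It ran from 10768 to 16253 (median 11975.5) in the highest libraries, against 10648 to 19320 (median 15142.5) in the lowest. Etv1, an ETS factor of layer 5, measured 152, 178, 99, 134, 101, 135, 134 and 88, against 56 to 120 (median 80.5; log2 difference 0.58 ± 0.12, adjusted p = 0.0226). Deptor, an inhibitor of mTOR, ran from 53 to 108 against 31 to 68 (0.50 ± 0.11, adjusted p = 0.0257). Rxfp1, a relaxin receptor, ran from 0 to 24 against 0 to 2 and was higher with no limit on low values (0.76 ± 0.15, adjusted p = 0.0172).

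In the upper-layer list none of 11 members passed in limma, and 3 had an unadjusted p under 0.05. Rasgrf2 had the largest difference, 0.51 ± 0.22 (adjusted p = 0.211), with 387 in Low male 6 and 698 in High male 1 but 133 in Low female 4. Cux2 and Rorb had 0.20 ± 0.13 and -0.01 ± 0.09. Of 7 tested markers of the claustrum and endopiriform nucleus, cell groups beneath the cortex, none was higher and Nnat was lower. Nr4a2, a defining gene of these cells, ran from 12 to 32 against 5 to 34 and had 0.60 ± 0.18 (adjusted p = 0.101); Low male 6, with the most Slc17a7, had the least of the 8.

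Other genes of glutamate handling did not pass. None of 11 tested transporters and enzymes was called by limma, and 1 had an unadjusted p under 0.05 (median log2 difference -0.05). Slc17a6, the vesicular transporter VGLUT2 of thalamic and other subcortical neurons, ran from 13 to 23 in the 8 and from 0 to 19 in the 24, with 0.82 ± 0.24 (adjusted p = 0.144 with no limit on low values). Slc17a8, the transporter VGLUT3 that striatal cholinergic interneurons use, had -0.19 ± 0.13 (adjusted p = 0.443). None of 15 ionotropic and none of 7 metabotropic glutamate receptors was called, while 5 and 1 of them had an unadjusted p under 0.05. The closest was Grm8, at 24 to 85 against 9 to 47 (0.60 ± 0.19, adjusted p = 0.121).

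**Figure D3:**
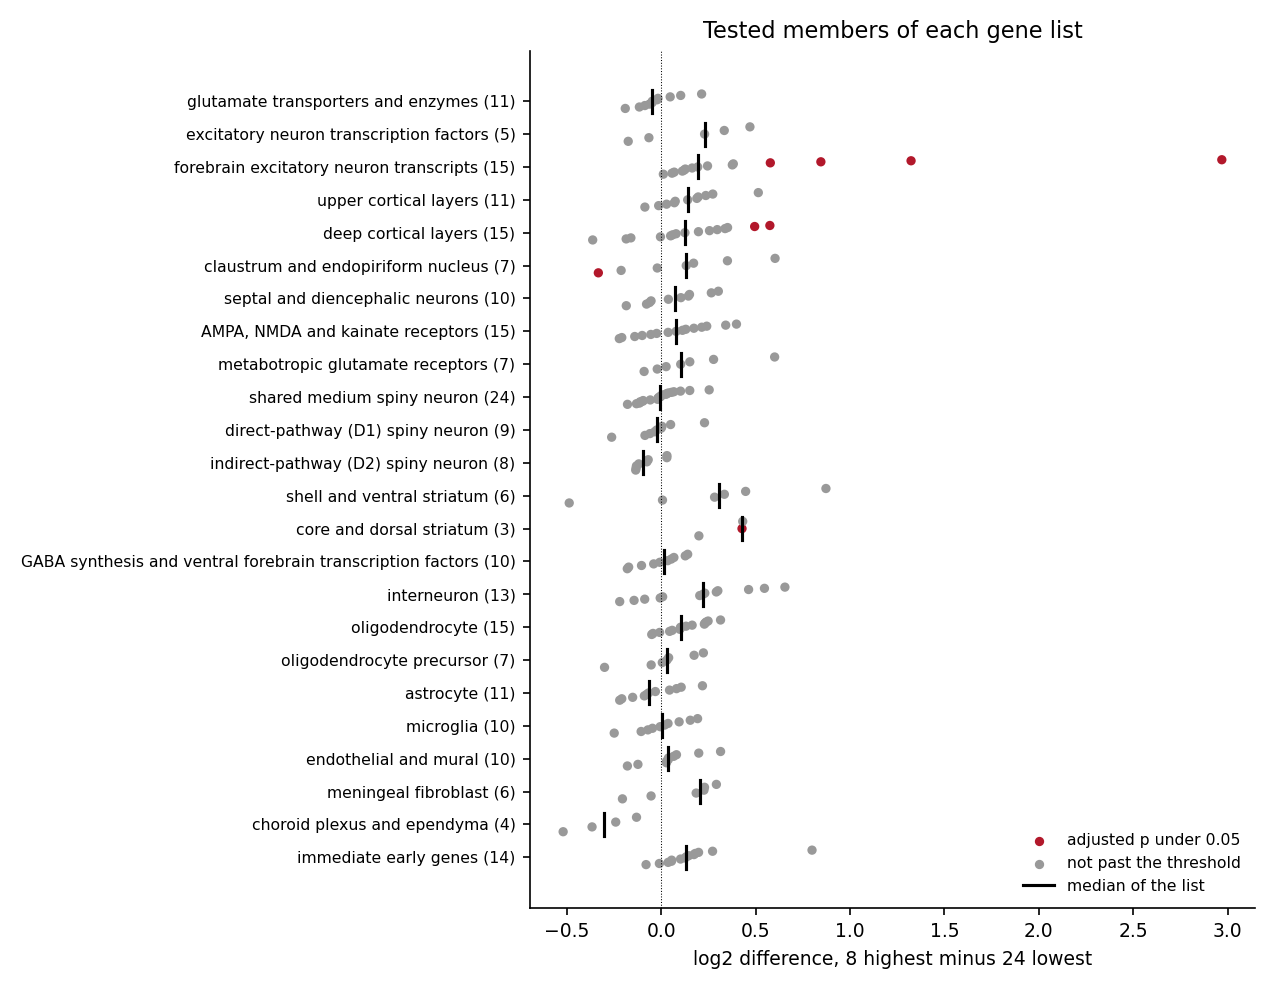
Log2 difference between the 8 highest and 24 lowest Slc17a7 libraries (horizontal axis) for every tested member of the 24 gene lists (vertical axis, number tested in brackets). Red points passed an adjusted p of 0.05 over all 15349 genes and black bars are list medians. The red points far to the right belong to the forebrain excitatory list, whose Cck lies at 2.97, while the 24 shared medium spiny neuron genes lie around a median of -0.01.

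No member of the striatal lists was called lower. None of 24 shared medium spiny neuron genes was called by limma (2 at an unadjusted p under 0.05), and their median log2 difference was -0.01. The range of their summed value was 149463 to 204451 in the 8 and 146198 to 207900 in the 24. Ppp1r1b measured 27945, 26191, 23720, 22406, 29261, 30197, 27766 and 28938, against a median of 28220 (log2 difference -0.02 ± 0.08). Low male 6, with the most Slc17a7, was close to that median. In bulk RNA, fewer cells of a type and less RNA per cell cannot be told apart.

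Direct-pathway neurons, which carry the D1 receptor and project to the midbrain and ventral pallidum, gave no call among 9 members, 1 of which had an unadjusted p under 0.05 (median -0.02). Drd1 had 0.00 ± 0.08. The member at that level was Tac1, the substance P precursor, at 9694, 12259, 10738, 11164, 17496, 12821, 11038 and 12428, against 12210 to 17017 (median 14801.5). Of the 8, 7 lay below that median and Low female 4 above all 24. The log2 difference was -0.26 ± 0.07 (adjusted p = 0.0936), and without Low female 4 it was -0.35 (adjusted p = 0.00509). It also passed in mice of gender M alone (-0.40, adjusted p = 0.024) and in a fit of all 48 libraries as 3 classes (-0.27, adjusted p = 0.0472). In limma it did not pass without High male 1 (adjusted p = 0.326), without Low male 6 (0.253) or with the last-exon share as a covariate (0.505). For 12 against 24 libraries its limma adjusted p was 0.182, and in gender F alone the difference was -0.04 (adjusted p = 0.999).

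Indirect-pathway neurons, which carry the D2 receptor, gave no call among 8 members, 1 of which had an unadjusted p under 0.05 (median -0.10). Drd2 ran from 2766 to 4013 against 2382 to 4896 (-0.07 ± 0.10), Adora2a, the adenosine receptor of these neurons, from 4195 to 6241 against 4040 to 7927 (-0.13 ± 0.09), and Penk, the enkephalin precursor, had -0.08 ± 0.07. Among 10 genes of GABA synthesis and ventral forebrain identity limma made no call, and 1 had an unadjusted p under 0.05. Gad1 and Gad2, which make GABA, had -0.01 ± 0.07 and -0.04 ± 0.09.

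In the small lists of striatal territories most differences lay above 0. Of the 6 shell genes 5 were above 0 and 1, Cartpt, below (median 0.31). All 3 core and dorsal genes were above 0 (median 0.43). With the last-exon share as a covariate these medians were 0.11 and 0.30. None of 6 shell genes was called and 2 had an unadjusted p under 0.05. Cartpt, a neuropeptide precursor of the shell, measured 2871, 2970, 4666, 5535, 7621, 3751, 4004 and 5428, against 4358 to 9013 (median 6098.5). Of the 8, 7 lay below that median, and the log2 difference was -0.49 ± 0.13 (adjusted p = 0.0678); without Low female 4 it was -0.60 (adjusted p = 0.011). It also passed without Low male 8 (adjusted p = 0.0446) or High male 10 (0.0402). The same held with no covariates (0.0445), with 3 classes (0.0243) and in gender M alone (-0.73, adjusted p = 0.0235). In limma it did not pass without High male 1 (-0.40, adjusted p = 0.3), with library weights (0.125) or for 12 against 24 libraries (0.0945). Nor did it pass for 8 against 8 (0.118), in the High or Low line alone (0.425 and 0.679) or in gender F alone (-0.09, adjusted p = 0.999). Calcr, the calcitonin receptor, measured 74, 132, 235, 285, 28, 399, 325 and 23, against 2 to 215 (median 70), with a log2 difference of 0.87 ± 0.46 (adjusted p = 0.319). Drd3, the dopamine receptor of the ventral striatum, had 0.45 ± 0.19 (adjusted p = 0.216), and 0.03 with the last-exon share as a covariate.

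Of 3 core and dorsal striatal genes, Cnr1 was higher and the others were not called. Cnr1, the cannabinoid receptor CB1, which cortical interneurons and pyramidal cells carry as well, measured 776, 784, 522, 522, 540, 542, 458 and 427, against 286 to 592 (median 421). All 8 lay above that median, and the log2 difference was 0.43 ± 0.09 (adjusted p = 0.0257). It was called in 6 of the 8 fits that left out 1 library and not with the last-exon share as a covariate (0.30, adjusted p = 0.642). Calb1 had 0.43 ± 0.15 (adjusted p = 0.131).

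Of the 74 called genes, 11 stayed called whichever of the 8 libraries was left out, and all 11 were higher. They were Cck, Mpped1 and Rtn4r of the lists, and Cbln2, Ccn3, Hs3st2, Scube1, Vxn, Nxph3, Mfsd4a and Prss12 outside them. Except for Vxn, those outside the lists were chosen for naming once their values were known. Cbln2, a secreted organiser of synapses, measured 77, 57, 44, 29, 43, 24, 31 and 30, against 5 to 19 (median 12.5; log2 difference 1.29 ± 0.15, adjusted p = 2.37e-06). Ccn3, a matricellular protein, measured 387, 174, 127, 128, 108, 69, 69 and 28, against 10 to 38 (median 20.5; 2.03 ± 0.23, adjusted p = 2.37e-06). The 7 highest of the 8 lay above all 24.

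Vxn (vexin) measured 1381, 901, 878, 717, 606, 436, 481 and 348, against 251 to 456 (median 345.5; 0.94 ± 0.15, adjusted p = 0.00115). Hs3st2, a heparan sulfate sulfotransferase, ran from 55 to 190 against 31 to 81 (0.94 ± 0.15, adjusted p = 0.000801). Nxph3, a neurexin ligand, ran from 34 to 139 against 13 to 43, and Prss12, the synaptic protease neurotrypsin, from 32 to 140 against 2 to 90. With the last-exon share as a covariate 6 genes remained called, Cck, Cbln2, Ccn3, Hs3st2, Vxn and Mpped1.

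The other higher genes named by size had log2 differences from 0.60 to 0.77, each lost in at least 2 of the 8 fits that left out 1 library unless stated. Nptxr, the receptor partner of Nptx1, measured 2566, 1929, 1681, 1291, 1161, 1033, 859 and 699, against 528 to 1081 (median 789.5; 0.73 ± 0.14, adjusted p = 0.0133). It fell strictly in the order of Slc17a7. Synj2 (0.77 ± 0.16), Pitpnm3 (0.76 ± 0.18), Rph3a (0.71 ± 0.17), Galnt9 (0.71 ± 0.14), the phosphatase Ptprk (0.68 ± 0.13, lost in 1), the potassium channel Kcnc4 (0.65 ± 0.15), Cntnap4 (0.62 ± 0.14) and Mical2 (0.60 ± 0.13) had adjusted p values from 0.01 to 0.0396. Of the 56 higher genes, 38 had all 8 libraries above the median of the 24.

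The 18 lower genes changed by less, and none stayed called in all 8 fits or with the last-exon covariate. In 14 of them all 8 libraries lay below the median of the 24. Mrpl41, a protein of the mitochondrial ribosome, measured 688, 660, 765, 731, 825, 687, 788 and 635, against 746 to 1077 (median 870.5). Of the 8, 5 lay below all 24. Its log2 difference was -0.30 ± 0.06 (adjusted p = 0.017), and -0.19 with the last-exon share as a covariate (adjusted p = 0.595).

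Nnat, the small membrane proteolipid neuronatin, measured 8327, 9533, 12963, 12416, 12390, 11446, 11935 and 10516, against 10394 to 17748 (median 13921; -0.33 ± 0.08, adjusted p = 0.0432). Gm23134 (-0.45 ± 0.10) is listed close to Nnat on chromosome 2 on the opposite strand, at 157388097 against 157385814 on mm9. Whether reads were counted by strand is not given in the sources used here, so the values of such neighbours may share reads. The others named by size included 2 subunits of the mitochondrial respiratory chain, Ndufv3 (-0.28 ± 0.06) and Uqcrb (-0.28 ± 0.07), the RNA polymerase subunit Polr2l (-0.29 ± 0.07), the RNase P subunit Rpp30 (-0.34 ± 0.07), Mcee (-0.35 ± 0.08), 2300009A05Rik (-0.36 ± 0.09), Ppp1r14b (-0.30 ± 0.06) and Eef1akmt1 (-0.30 ± 0.07).

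**Figure D4:**
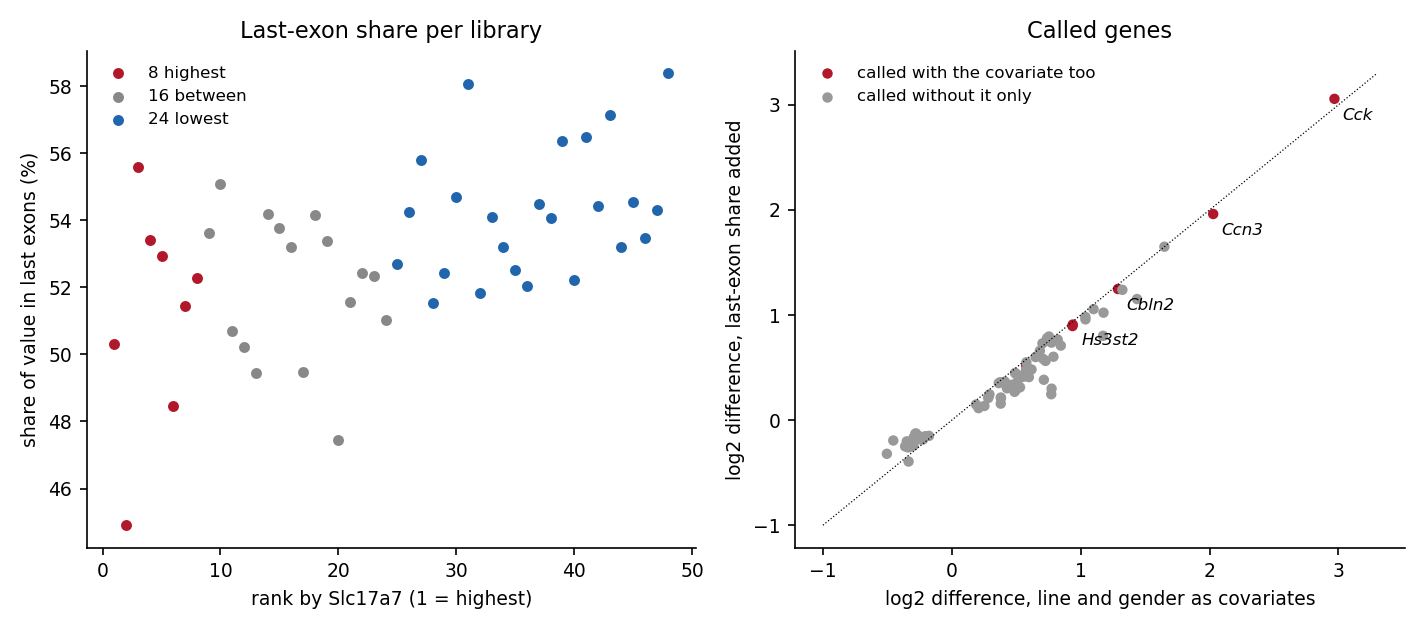
Left, share of the value in last exons (percent) in each of the 48 libraries, ordered by Slc17a7; right, log2 differences of the 74 called genes with line and gender as covariates (horizontal axis) against those with the last-exon share added (vertical axis), the dotted line marking equality. Red points at right are the 6 genes called in both fits, led by Cck at 2.97 and 3.06.

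Within the 8 libraries, most of the called excitatory transcripts rose with Slc17a7, the gene by which the libraries were ranked. Line and gender were not covariates in the correlations that follow. The log2 values of 18 genes, the members of the glutamatergic lists called in either fit, were correlated with log2 Slc17a7, with exact two-sided permutation tests and p values adjusted over the 18. For Neurod6 Pearson's r was 0.95 (exact p = 0.000422, adjusted 0.00179) and Spearman's rho 0.98 (exact p = 0.000397, adjusted 0.00179), with r 0.89 without the 2 libraries farthest from the median. For Tbr1 r was 0.95 (exact p = 0.000298, adjusted 0.00179) and rho 0.93 (exact p = 0.00223, adjusted 0.00536), with r 0.91 without those 2. For Slc30a3 r was 0.94 (exact p = 0.000595, adjusted 0.00179) and rho 0.98 (exact p = 0.000397, adjusted 0.00179), with r 0.94 without them.

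Cck had r 0.92 (exact p = 0.00176, adjusted 0.00317) and rho 0.83 (exact p = 0.0154, adjusted 0.0213), with r 0.91 without the 2 farthest libraries. No correlation with Slc17a7 passed for Etv1 (r 0.46, exact p = 0.252, adjusted 0.254; rho 0.59, exact p = 0.135, adjusted 0.143), nor for Nnat (r -0.46, exact p = 0.254, adjusted 0.254; rho -0.19, exact p = 0.665, adjusted 0.665). The r of Mpped1 was 0.79 (exact p = 0.0201, adjusted 0.0241; rho 0.86, exact p = 0.0107, adjusted 0.0167) but 0.42 without the 2 farthest libraries, so it rested on those. For Deptor r passed (0.78, exact p = 0.0171, adjusted 0.0220) but rho did not (0.60, exact p = 0.125, adjusted 0.141). All of these genes were chosen by a difference to which the same libraries contribute, so the correlations are no independent support. The last-exon share had r -0.13 with log2 Slc17a7 in the same libraries. Relative to Slc17a7, the value of Tbr1 was 6.73% to 16.1% in the 8 libraries, that of Neurod6 1.38% to 8.22% and that of Cck 18.0% to 49.3%. Slc17a7 itself ran from 217 to 3886. High female 6, with the least Slc17a7 of the 8, had the lowest share of Neurod6 and the highest of Cck. The level of each gene in the lowest libraries was not subtracted.

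The 16 libraries between entered neither side. Slc17a7 ran from 16 to 152 in them with a median of 26, so most lay close to the 24 lowest. A slope there had a narrow range to rest on, and a lack of calls does not show that the pattern was absent. A slope on log2 Slc17a7 was called for none of 15349 genes (limma, 0%), with 507 at an unadjusted p under 0.05, and for none with no limit on low values (1210 at that level). Of the 56 higher genes 30 had a positive slope, and of the 18 lower genes 5 had a negative one. The median slope over all 15349 genes was -0.0017. Among these 74 called genes, only Cck had a slope in the direction of its difference and an unadjusted p under 0.05. Its slope was 0.56 per log2 unit (limma with no limit on low values, unadjusted p = 0.00166). Of genes called only with no limit on low values, Neurod2 had 0.22 (unadjusted p = 0.00426) and Rtn4rl2 0.24 (unadjusted p = 0.00393), while Tbr1 had 0.22 (unadjusted p = 0.0701) and Neurod6 0.13 (unadjusted p = 0.0951). Neurod6 reached at most 5 in these libraries.

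No gene was called for a dependence of the difference on line or gender. The interaction of side and line was called for none of 15349 genes (limma, 0%, with 317 at an unadjusted p under 0.05), and that of side and gender for none (0%, 712). With 3 High and 5 Low libraries among the 8, and 3 of gender F and 5 of gender M, these tests rest on few mice. The 4 libraries with the most Slc17a7 were all of gender M, so gender and the amount of Slc17a7 went together among the 8. Fitted within gender F and gender M, the log2 difference was 1.88 and 3.63 for Cck and 0.21 and 2.02 for Rtn4r. For Rpp30 it was larger in gender F (-0.40 and -0.30). The cause was not tested.

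Markers of other cell types gave no call by limma. For oligodendrocytes 1 of 15 members had an unadjusted p under 0.05, and the summed value ran from 17485 to 23586 in the 8 and from 11759 to 27110 in the 24. With the mean of these markers as a covariate 37 genes were higher and 6 lower. The numbers at an unadjusted p under 0.05 were 2 of 7 for oligodendrocyte precursors, 2 of 11 for astrocytes, 1 of 10 for microglia, 1 of 10 for endothelial and mural cells, 1 of 6 for meningeal fibroblasts and 1 of 4 for choroid plexus and ependyma. Summed values overlapped in each list; those of meningeal fibroblasts, for example, ran from 416 to 936 in the 8 and from 366 to 908 in the 24.

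Of 13 interneuron genes 4 had an unadjusted p under 0.05, against 17.7% of all tested genes. Reln, made by cortical and striatal interneurons among others, ran from 157 to 317 in the 8, all above the median of 156 in the 24 (0.55 ± 0.17, adjusted p = 0.118). Of 10 septal and diencephalic genes 1 was at that level, Prox1 (0.30 ± 0.09, adjusted p = 0.112). Of 14 immediate early genes, transcribed quickly after neuronal firing, 1 was, Egr3 (0.80 ± 0.27, adjusted p = 0.132). Its highest value of the 8 was 257 in High male 1, and its difference was 0.06 with the last-exon share as a covariate. The part of these cells in the results above was not tested.

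Exon usage was compared in the deposited exon values, with limma's diffSplice and a Simes p per gene. The pseudocount first chosen, 0.05 ppm, made too many wrong calls on simulated data and gave 174 genes here. With 0.5 ppm, 58 of 14701 genes (0.395%) were called, and 6 with the last-exon share as a further covariate. Nrd1 (nardilysin; exon 2 of 32, chromosome 4, 108686115 on mm9) and Itgb5 (integrin beta 5; the last of 18 exons, chromosome 16, 33948743) had the smallest p, and neither was called with that covariate. The last exon of Itgb5 measured 137 ± 73.1 (SD, n = 8) against 206 ± 64.4 (SD, n = 24). For Pter (chromosome 2, 12922484), the last exon measured 251 ± 158 against 104.5 ± 48.0 and the other exons together a mean of 4 against 3.5, so that nearly all of the value lay in 1 exon on both sides. Its diffSplice adjusted p was 0.00154, and 0.0344 with the covariate, but 0.414 with the pseudocount of 0.05 ppm, so the call rested on the pseudocount. Ttc13, Dmap1 and 9130019P16Rik were the others named by rule, and each was lost with the covariate.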

How the data were processed

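RNA was measured in 48 libraries of mouse nucleus accumbens shell. The authors deposited 1 table of 37620 genes and 1 of 247845 exons with 1 column per library, and all columns were matched to libraries. The deposited values are a score: counts that the authors normalised and rounded, as the table names and the values show. Per the submitters' processing notes the build was mm9 and the tools named are edgeR 3.4.2, R 3.0.2, STAR 2.4.0, FastQC and CASAVA, with no role or order. The counter, strand setting, annotation release and normalisation are not given in the sources used here, so no count model was fitted and no counting interval given.

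Symbols came from GENCODE M21 by Ensembl identifier (32897 matched, 4723 not). Genes at 1 ppm of the mean column total (14.06 units) or more in 12 of 48 libraries entered a limma fit (version 3.58.1, R 4.3.3) on log2(value + 0.5 ppm), with a mean-variance trend, line and gender as covariates and Benjamini-Hochberg adjustment over all tested genes except Slc17a7. For exon usage, diffSplice took exons that reached 0.1 ppm in 12 libraries, with pseudocounts of 0.05 and 0.5 ppm. Tests were checked on simulated data. The libraries and the 24 gene lists (273 symbols, 246 tested) were chosen with earlier results of these data known. Named genes were the 12 with the largest difference in each direction among called genes with a symbol and a mean of 5 ppm or more. They also include called list members, up to 2 others per list, all listed transcription factors, Slc17a6 and Slc17a8, and the 6 genes of smallest exon p. Other named genes were chosen after their values were seen, and a few genes that the rule names are not reported here. Alternatives changed the pseudocount, filter, scaling, weights, covariates and libraries. The last-exon and oligodendrocyte covariates, the fits that combine no filter with another change and the exon fits without 1 library were added after seeing the data.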

Additional observations from a re-analysis of the deposited data

Results flagged for a closer look

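In each gene named here, 1 of the 8 highest Slc17a7 libraries stood apart from the other 7 by Dixon's criterion (the gap divided by the range, above its 95% critical value). Of 94 genes examined 4 did so, and chance alone gives about 1 in 20. Mical2, an actin-regulating oxidase, measured 1652 in Low male 6, and the next value was 1018. Tac1 measured 17496 in Low female 4, and the next was 12821, with a ratio of 0.5266 that only just passed. Prox1 measured 29 in Low female 4, and the next was 44. Eomes was listed at 2 in Low female 9 and at 0 in the other 7, so its ratio was 1 whatever the size of the gap.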

How the results depend on the processing

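The count of genes higher was 56 and of genes lower 18. Higher and lower were 27 and 5 with library weights, 77 and 41 with no covariates, 112 and 58 in a fit of all 48 libraries, 135 and 50 for a slope over all 48, 15 and 10 for 12 against 24 libraries, and 8 and 1 for 8 against 8. Within strata they were 2 and 1 in the High line, 2 and 0 in the Low line (limma, 1107 at an unadjusted p under 0.05), 0 and 0 in gender F (limma, 451 at an unadjusted p under 0.05) and 63 and 22 in gender M. Covariates gave 6 and 0 (last-exon share), 37 and 6 (oligodendrocyte mean) and 26 and 1 (last-exon share with no filter). Leaving out 1 library gave 11 to 242 higher and 0 to 261 lower. The count of lower genes moved by over 1.5 times without any of the 8 but Low female 9, and that of higher genes without High male 1, Low male 6, Low male 5 (33), Low female 4 (132) or High male 10. With no filter the ranges were 31 to 134 and 2 to 71. Among those fits, higher genes numbered 100 without High female 6 and 119 without High male 10, and lower genes 59 without Low female 4 and 8 without Low male 5. Pseudocounts, filters and scalings kept both counts within 1.5 times. For the genes named by rule and reported here, 1726 values kept their direction and side of the threshold, 295 no longer passed, 15 newly passed and 14 changed sign. No value that changed sign had passed the threshold or passed it after the change. In gender F alone these were Rasgrf2 (-0.16), Sp9 (0.0035), Dlx6 (0.043), Trf (-0.056), Vcan (0.091) and Lhx2 (0.064). With the last-exon share they were Grin1 (-0.026), Slc32a1 (-0.070) and, with no filter, Eomes (0.015), and in the Low line Slc6a13 (-0.12). Eomes also changed sign in 4 fits without 1 library (0.0021 to 0.0036). The causes were not tested.

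Exon usage gave 174 genes with 0.05 ppm, 58 with 0.5 ppm, 56 with exons at 1 ppm or more, 50 with the last-exon share and 6 with it and 0.5 ppm, and 60 to 306 without 1 library, lowest without High male 1 and highest without High male 10. Slopes in the 16 libraries and line interactions stayed at 0 calls under each alternative. No paired analysis was possible because replicate numbers follow the order of listing and pair no mice. Depth is unknown, and its part in values of a few counts was not tested.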

Other observations

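With no limit on low values, 31 called genes lay outside the genes tested above, and 20 of them were on no list, 19 higher and 1 lower. Those named here were picked with their values known. Bdnf, the neurotrophin that cortical axons supply to the striatum, measured 64, 50, 57, 30, 12, 6, 3 and 5 in the 8 libraries, against 0 to 10 (median 2.5) in the 24 (log2 difference 1.43 ± 0.25, limma adjusted p = 0.00328). Adcyap1, the precursor of the neuropeptide PACAP, measured 53, 33, 43, 29, 11, 6, 0 and 3, against 0 to 4 (1.52 ± 0.23, adjusted p = 0.000497). Grp, gastrin-releasing peptide, measured 56, 32, 35, 49, 3, 3, 5 and 1, against 0 to 7 (1.32 ± 0.26, adjusted p = 0.0146); its first 4 libraries lay above all 24 and the other 4 within their range.

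The noncoding Gm11549 measured 63, 23, 24, 12, 18, 16, 8 and 6, against 0 to 4, and was listed at 0 in 20 of the 24 (1.74 ± 0.16, adjusted p = 8.38e-08). Prdm8, a transcriptional repressor of cortical projection neurons, ran from 0 to 43 against 0 to 3 (1.26 ± 0.18, adjusted p = 0.000155). Adra1b, the alpha-1B adrenergic receptor, ran from 10 to 50 against 4 to 17 (0.96 ± 0.15, adjusted p = 0.001), and Rspo2, a Wnt agonist, from 0 to 99 against 0 to 9 (1.23 ± 0.27, adjusted p = 0.0353). Of the 31 genes 19 stayed called with the last-exon share as a covariate, and 17 in each of the 8 fits that left out 1 library. With that covariate, 27 of all 28769 genes were called. A gene that enters this fit through the 8 libraries alone had to differ, so these counts describe the libraries and are no added support.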
